A study of Mus musculus with 9 samples.

Results

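Adhesion G protein-coupled receptors are a family of cell surface receptors, and most of their genes carry symbols that start with Adgr. Celsr1, Celsr2 and Celsr3 belong to the same receptor class under other symbols and are given apart from the members. All genes whose symbol has the form Adgr, a subfamily letter and a number were taken, and 25 such genes were measured among the 19938 genes of the array. The reference gene table held 27 genes of this form, and the other two, Adgrf3 and Adgrg5, had no probe set of their own. One probe set stood for each gene, the one with the highest mean over the 9 arrays. Only Adgrl2 had more than 1 probe set, and it had 8.

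The arrays fell into 3 groups of 3. The osteosarcoma group held 3 cell lines, 493H, 494H and 716H, with 1 array each, derived from adult C57BL/6 mice with the genotype Osx-Cre p53fl/fl Rbfl/fl. In these mice the osteoblast-lineage promoter Osx drives Cre recombinase, which deletes the floxed p53 and Rb alleles. Lines 493H and 716H came from females and line 494H from a male, all lines were described as fibroblastic, and they were harvested subconfluent and below passage 8. The pre-osteoblast group held undifferentiated cultures of the mouse line Kusa4b10, which is of bone marrow stromal origin. The osteoblast group held cultures of the same line after 21 days of ascorbate-supplemented differentiation medium. All 6 Kusa4b10 cultures were of 1 line, called independent samples in the labels, so their spread is that of cultures of this line. Tumour state and line of origin cannot be told apart here, and neither can differentiation and time in culture. Because RNA came from whole cultures, fewer cells of a type and less RNA per cell cannot be told apart.

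An adhesion GPCR combines a long extracellular region, often built of domains that bind other cells or matrix, with the membrane-spanning part of a G protein-coupled receptor. Most members cut themselves within a conserved domain next to the membrane, and the stretch freed by this cut can act as a tethered agonist. Members signal through several kinds of G protein and take part in synapse formation, myelination, vascular development and immune cell adhesion.

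Values are log2 expression levels, so a difference of 1 is a 2-fold change. Each difference carries its standard error from the fit. A gene was called where limma's Benjamini-Hochberg adjusted p, taken over all 19938 genes, was below 0.05. Array medians over probe sets lay between 7.43 and 7.56. As a mark for dim probe sets, the 95th percentile of the mean levels of 1027 olfactory receptor genes was 6.83. Osteoblast markers had a mean level of 10.66 to 11.22 in the osteoblast cultures, 8.29 to 8.71 in the pre-osteoblast cultures and 8.54 to 9.03 in the lines. Of 9 adipocyte markers, 7 were called higher in osteoblasts than in pre-osteoblasts, and all 7 measured cell cycle markers were called lower. These marker lists moved together with the comparison of Kusa4b10 states, and their part in the values below was not tested.

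Between groups, 14 of the 25 members were called in at least 1 pairwise comparison, against 42% of all genes, and the same number passed the moderated F test over the groups, against 38.4% of all genes. In osteoblasts against pre-osteoblasts, 2 members rose and 6 fell, where 10.3% of all genes were called higher and 15.8% lower. In osteosarcoma against pre-osteoblasts, 3 rose and 7 fell, where the shares of all genes were 9.96% and 13.5%. In osteosarcoma against osteoblasts, 6 were higher and 4 lower, where 14.7% and 12.7% of all genes were. Changes of at least 2-fold were called for 7 members in at least 1 comparison, 28% of them, against 10.9% of all genes. The groups did not overlap for 14 members in osteoblasts against pre-osteoblasts (44.2% of all genes), 13 in osteosarcoma against pre-osteoblasts (35.6%) and 11 in osteosarcoma against osteoblasts (38.7%). In the same order, 2, 5 and 6 members were called and changed at least 2-fold, against 6.23%, 4.58% and 6.94% of all genes. The median difference over the members was 0.02, -0.03 and -0.06 in these comparisons, and that over all genes was -0.00, -0.02 and -0.02. The number higher in osteoblasts than in pre-osteoblasts was 1 without osteoblast culture 3, pre-osteoblast culture 1 or pre-osteoblast culture 3, and 4 without line 494H. The number higher in osteosarcoma than in osteoblasts was 3 without any 1 of the osteoblast cultures, and the number higher than in pre-osteoblasts was 5 without line 494H.

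**Figure D1:**
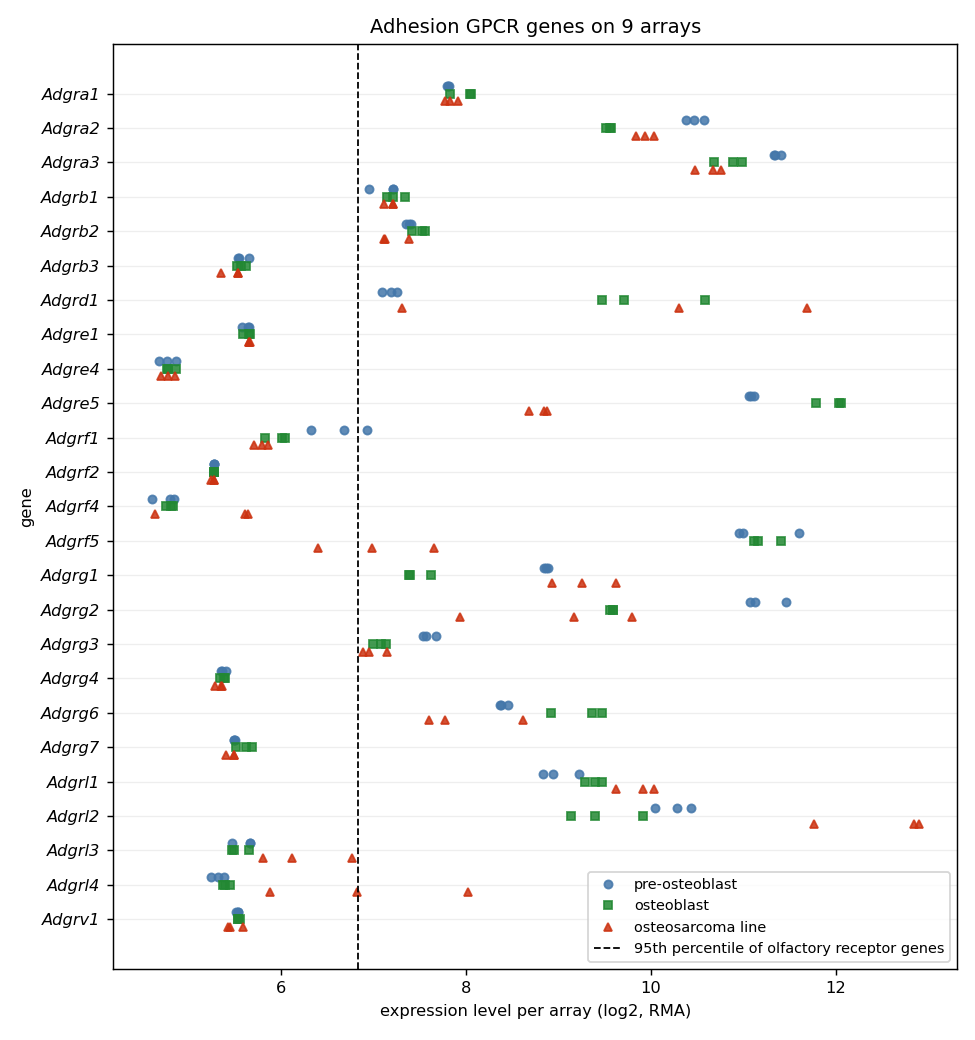
Expression level (log2) of the 25 adhesion GPCR genes on each of the 9 arrays, with pre-osteoblast cultures as circles, osteoblast cultures as squares and osteosarcoma lines as triangles; the dashed line marks 6.83, the 95th percentile of the olfactory receptor genes. Adgre5 and Adgrf5 are lower and Adgrl2 higher in all 3 lines than in all 6 Kusa4b10 cultures, while 9 genes lie left of the line on every array.

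The latrophilins (Adgrl1, Adgrl2 and Adgrl3) bind teneurins and FLRT proteins on neighbouring cells and are best known as synaptic adhesion receptors, and Adgrl4, also called Eltd1, is known from blood vessel endothelium. All 4 genes of this subfamily were called higher in osteosarcoma than in osteoblasts, and 3 of them higher than in pre-osteoblasts, with Adgrl3 as the exception. Adgrl2 was measured at 12.90, 11.76 and 12.85 in lines 493H, 494H and 716H. It was at 9.14, 9.92 and 9.40 in the osteoblast cultures and at 10.28, 10.04 and 10.43 in the pre-osteoblast cultures. Every line lay above every Kusa4b10 culture, and 494H was the lowest line. Adgrl2 in osteosarcoma was 8.08-fold above osteoblasts (3.02 ± 0.32, limma adjusted p = 3.65e-04) and 4.76-fold above pre-osteoblasts (2.25 ± 0.32, adjusted p = 0.00171). Between osteoblasts and pre-osteoblasts its difference was -0.76 ± 0.32 (adjusted p = 0.124), although these groups did not overlap. Without line 494H this difference passed (adjusted p = 0.0214), as it did when only these groups entered the fit (0.0347).

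The 8 probe sets of Adgrl2 gave the same picture for the lines. In a fit of all single-symbol probe sets, a setting added after the data were seen, each of the 8 was called higher in osteosarcoma than in osteoblasts, by 1.04 to 3.46, and higher than in pre-osteoblasts, by 0.87 to 2.46. On each of them all lines lay above all cultures of either Kusa4b10 state. None of the 8 was called between osteoblasts and pre-osteoblasts (-1.0 to -0.16, limma adjusted p 0.112 to 0.68), and 5 of the 8 showed no overlap there. Line 494H was the lowest line on every probe set, by 0.66 to 1.5 from the nearest other line.

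**Figure D2:**
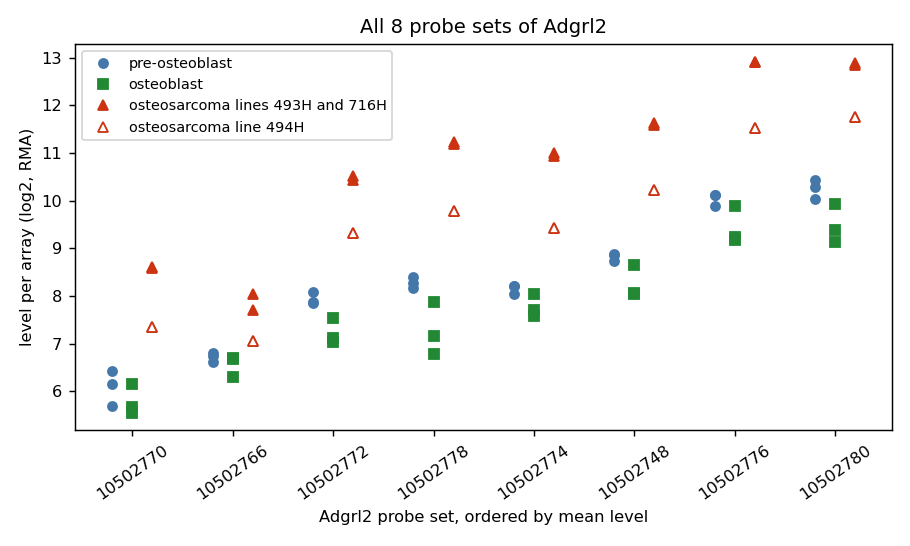
Level (log2) of Adgrl2 on each of its 8 probe sets, ordered by mean level, for each array; the open triangle is line 494H. The lines lie above all Kusa4b10 cultures on every probe set, and 494H lies at least 0.66 below the other lines.

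Adgrl4 was at 6.82, 8.02 and 5.88 in lines 493H, 494H and 716H, at 5.37, 5.45 and 5.39 in osteoblasts and at 5.32, 5.24 and 5.38 in pre-osteoblasts. Only line 494H exceeded the olfactory receptor mark of 6.83, and no line overlapped with the cultures. The mean differences were 1.5 ± 0.44 from osteoblasts (limma adjusted p = 0.0346) and 1.59 ± 0.44 from pre-osteoblasts (0.0315). The call against osteoblasts was lost without line 493H (adjusted p = 0.0742) or any 1 Kusa4b10 culture (0.0545 to 0.0961). The call against pre-osteoblasts was lost without line 493H (0.0687), osteoblast culture 1 or 3, or any 1 pre-osteoblast culture (0.0535 to 0.0867). Without line 494H, its highest line, Adgrl4 was still called, at 0.95 and 1.03. None of 10 endothelial markers was called in any comparison over all arrays. Without line 494H, 1 of them was called higher in osteosarcoma in each of the osteosarcoma comparisons. The mean level of the 10 markers was 6.80, 6.53 and 6.67 in the lines and 6.51 to 6.54 in the Kusa4b10 cultures. Of these markers Tek, an angiopoietin receptor, stood at 9.02 in 493H, 6.28 in 494H and 7.15 in 716H, while Pecam1 was at 6.49 in every line. The part of endothelial cells in the values of Adgrl4 was not tested.

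Adgrl1 was at 9.92, 10.03 and 9.62 in the lines, 9.40, 9.47 and 9.29 in osteoblasts and 8.83, 9.22 and 8.94 in pre-osteoblasts, so the groups stood in a row without overlap. It was higher in osteosarcoma than in pre-osteoblasts by 0.86 ± 0.13 (limma adjusted p = 0.00249) and than in osteoblasts by 0.47 ± 0.13 (0.0300). The latter call was lost without line 493H or 494H or any 1 osteoblast culture (0.0510 to 0.102). The step from pre-osteoblasts to osteoblasts, 0.39 ± 0.13, did not pass (0.0640), and passed without line 494H (0.0491), line 716H (0.0319) or pre-osteoblast culture 2 (0.0314). Adgrl3 was below the olfactory receptor mark on all arrays, with means of 6.23 ± 0.49 (SD, n = 3) in the lines and 5.54 ± 0.10 in osteoblasts. Its difference of 0.70 ± 0.21 between them was called (adjusted p = 0.0414), but not without line 493H or any 1 Kusa4b10 culture (0.0622 to 0.119). The call was also lost with only these groups in the fit (limma adjusted p = 0.101). Against pre-osteoblasts the difference was 0.64 ± 0.21 (0.0633), and 0.85 without line 716H (adjusted p = 0.0140).

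Adgrl2 and Adgrl4 are neighbours on mouse chromosome 3, with 0 protein-coding genes between them in the RefSeq gene table. Their sequences just before a RefSeq transcript start are shown because both genes were higher in the lines and the study is about DNA methylation, which acts on CG dinucleotides; capitals mark each CG, which reads the same on both strands. The sequences are from RefSeq (GRCm38.p6), chr3:148954636-148954885 on the minus strand for Adgrl2 and chr3:151437632-151437881 on the plus strand for Adgrl4, and other starts of these genes were not used here.
Adgrl2: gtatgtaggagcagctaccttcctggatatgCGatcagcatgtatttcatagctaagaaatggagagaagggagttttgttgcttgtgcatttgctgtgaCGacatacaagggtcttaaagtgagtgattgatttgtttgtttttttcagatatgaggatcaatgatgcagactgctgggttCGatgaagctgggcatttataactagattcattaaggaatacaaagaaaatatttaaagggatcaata
Adgrl4: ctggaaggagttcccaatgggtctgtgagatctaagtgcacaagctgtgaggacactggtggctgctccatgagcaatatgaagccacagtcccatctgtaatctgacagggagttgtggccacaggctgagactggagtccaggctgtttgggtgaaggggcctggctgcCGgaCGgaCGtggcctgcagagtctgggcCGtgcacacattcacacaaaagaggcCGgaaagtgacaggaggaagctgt
The Adgrl2 stretch held 3 CG and the Adgrl4 stretch 5. Of 32851 promoter stretches of the same 250 bases, 71% held as many CG as the former or more and 55.6% as many as the latter or more.

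Adgre5, also called Cd97, is a receptor of leukocytes and other cells that binds Cd55 and Thy1. It was one of 2 members, with Adgra2, that were called in all 3 comparisons, as 4.87% of all genes were. Adgre5 was at 8.68, 8.84 and 8.88 in lines 493H, 494H and 716H. It was at 12.03, 11.79 and 12.06 in osteoblasts and at 11.06, 11.12 and 11.08 in pre-osteoblasts. The levels were close together within each group and far apart between groups. Adgre5 was 8.93-fold lower in osteosarcoma than in osteoblasts (-3.16 ± 0.08, limma adjusted p = 1.74e-06) and 4.88-fold lower than in pre-osteoblasts (-2.29 ± 0.08, adjusted p = 4.26e-06). It rose from pre-osteoblasts to osteoblasts by 0.87 ± 0.08 (adjusted p = 2.55e-04). The other genes of this subfamily were dim on all arrays. Adgre1, a surface marker of mouse macrophages, lay between 5.58 and 5.67, and Adgre4 between 4.68 and 4.86. Of 11 macrophage and haematopoietic markers, the list mean was 6.83 to 6.86 in the lines, 6.74 to 6.84 in osteoblasts and 6.86 to 6.88 in pre-osteoblasts, and the leukocyte marker Ptprc lay between 5.97 and 6.21. Of these markers 2 were called, both named after their values were seen. Cd14 was lower in osteoblasts than in pre-osteoblasts (-0.43 ± 0.10, limma adjusted p = 0.0163), not so without osteoblast culture 1 or 2 or pre-osteoblast culture 1, and higher in the lines than in osteoblasts (0.48 ± 0.10, 0.00933). Fcer1g was lower in the lines than in osteoblasts (-0.23 ± 0.06, 0.0172), not so without osteoblast culture 2 or 3. The part of such cells in the values of Adgre5 was not tested.

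Adgrf5, also called Gpr116, is known for its role in lung surfactant control and is found in endothelium and fat tissue. It showed the largest difference of the 25 members. Adgrf5 was at 11.41, 11.12 and 11.16 in osteoblasts and at 11.60, 10.95 and 11.00 in pre-osteoblasts. In lines 493H, 494H and 716H it was at 6.40, 6.98 and 7.65, the first of these below the olfactory receptor mark. It was 18.6-fold lower in osteosarcoma than in osteoblasts (-4.22 ± 0.30, limma adjusted p = 7.82e-05) and 18.0-fold lower than in pre-osteoblasts (-4.17 ± 0.30, adjusted p = 9.84e-05). Between the Kusa4b10 states the difference was 0.05 ± 0.30 (adjusted p = 0.940). Endothelial markers in the Kusa4b10 cultures were at the list mean given above, with Pecam1 between 6.37 and 6.52 and Cdh5 between 6.54 and 6.66. Adipocyte markers had a list mean of 10.23 to 10.95 in osteoblasts and 7.64 to 8.13 in pre-osteoblasts, states in which Adgrf5 overlapped, and 7.21 to 7.46 in the lines. Single adipocyte genes, named after their values were seen, had other patterns. Pparg, the fat cell regulator, differed by 0.20 ± 0.22 between the Kusa4b10 states (limma adjusted p = 0.592) and was lower in the lines than in pre-osteoblasts (-1.54 ± 0.22, 0.00195) and osteoblasts (-1.74 ± 0.22, 8.52e-04). Lipe, a lipase of fat cells, was also lower in the lines in both comparisons (-1.38 ± 0.24 and -2.54 ± 0.24). Unlike Pparg, Lipe also rose from pre-osteoblasts to osteoblasts (1.16 ± 0.24, limma adjusted p = 0.0082). Pparg and Lipe were the only 2 of the 9 measured adipocyte markers called lower in the lines than in pre-osteoblasts. The part of fat-forming or endothelial cells in the values of Adgrf5 was not tested.

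RefSeq lists 2 starts of Adgrf5, both on the plus strand of chromosome 17, at chr17:43360181-43360430 and chr17:43389216-43389465 for the 250 bases before them (GRCm38.p6). They are printed because this gene fell most in the lines, with each CG in capitals.
Adgrf5 first start: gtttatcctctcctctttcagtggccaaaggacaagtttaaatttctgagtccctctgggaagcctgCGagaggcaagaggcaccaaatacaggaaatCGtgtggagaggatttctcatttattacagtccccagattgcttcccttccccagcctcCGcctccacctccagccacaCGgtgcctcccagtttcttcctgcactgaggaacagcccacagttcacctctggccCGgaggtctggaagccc
Adgrf5 second start: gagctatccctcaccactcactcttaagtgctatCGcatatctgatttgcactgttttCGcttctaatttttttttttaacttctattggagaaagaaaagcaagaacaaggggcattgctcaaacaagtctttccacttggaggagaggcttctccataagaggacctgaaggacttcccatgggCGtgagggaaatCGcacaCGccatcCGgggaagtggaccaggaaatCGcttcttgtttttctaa
The first stretch held 5 CG, a number reached by 55.6% of all stretches, and the second held 7, reached by 46.3%.

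Next to Adgrf5, with 0 protein-coding genes between them, lies Adgrf1 (Gpr110), which did not share its levels. Adgrf1 had means of 6.64 ± 0.30 (SD, n = 3) in pre-osteoblasts, 5.96 ± 0.11 in osteoblasts and 5.79 ± 0.07 in the lines, and exceeded the olfactory receptor mark on 1 array, a pre-osteoblast culture. It fell against pre-osteoblasts by 0.68 ± 0.14 in osteoblasts (limma adjusted p = 0.00806) and by 0.85 ± 0.14 in osteosarcoma (0.00336). Adgrf2 varied by 0.04 over all arrays. Adgrf4 was at 4.64 in line 493H and at 5.61 and 5.64 in 494H and 716H, against 4.60 to 4.84 in the Kusa4b10 cultures. It was called in no comparison, but without 493H the lines stood 0.88 above pre-osteoblasts (adjusted p = 6.87e-04) and 0.83 above osteoblasts (7.39e-04). Every value of Adgrf4 lay below the olfactory receptor mark, so these are differences between dim levels.

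The ADGRG subfamily held 6 measured members, and 3 of them fell and 1 rose from pre-osteoblasts to osteoblasts. Adgrg1, or Gpr56, a receptor needed for normal brain cortex layering that binds type III collagen, was at 8.87, 8.84 and 8.89 in pre-osteoblasts and at 7.38, 7.62 and 7.39 in osteoblasts. In lines 493H, 494H and 716H it was at 9.62, 8.93 and 9.25, above every Kusa4b10 culture. It fell in osteoblasts by 1.41 ± 0.16 (limma adjusted p = 4.65e-04), and the lines stood 3.50-fold above osteoblasts (1.81 ± 0.16, adjusted p = 1.56e-04). Against pre-osteoblasts the excess in the lines, 0.40 ± 0.16, missed the threshold (0.109), and it passed without line 494H (0.57, adjusted p = 0.0135). Adgrg3, its neighbour on chromosome 8 with 0 protein-coding genes between them, was at 7.60 ± 0.07 (SD, n = 3) in pre-osteoblasts, 7.07 ± 0.08 in osteoblasts and 7.0 ± 0.14 in the lines. Adgrg3 fell by 0.53 ± 0.08 in osteoblasts (adjusted p = 0.00213) and by 0.60 ± 0.08 in osteosarcoma (0.00139), both against pre-osteoblasts.

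Adgrg2, or Gpr64, is known from the male reproductive tract, where it is needed for fluid handling. It was at 11.46, 11.07 and 11.13 in pre-osteoblasts and at 9.59, 9.59 and 9.56 in osteoblasts. In lines 493H, 494H and 716H it was at 9.17, 7.94 and 9.80. All pre-osteoblast cultures lay above all other arrays, and the lines spread on both sides of the osteoblast cultures. Adgrg2 was 4.76-fold lower in osteosarcoma than in pre-osteoblasts (-2.25 ± 0.39, limma adjusted p = 0.00448) and 3.12-fold lower in osteoblasts (-1.64 ± 0.39, adjusted p = 0.0163). The latter call was lost without osteoblast culture 1 (0.0520) or 3 (0.0537) or pre-osteoblast culture 1 (0.0569). Between osteosarcoma and osteoblasts the difference was -0.61 ± 0.39 (0.316), and it passed without line 716H (-1.03, adjusted p = 0.0483). The 250 bases before its RefSeq start, on the plus strand at chrX:160390440-160390689 (GRCm38.p6), are shown as a CG-rich example beside the stretches above.
Adgrg2: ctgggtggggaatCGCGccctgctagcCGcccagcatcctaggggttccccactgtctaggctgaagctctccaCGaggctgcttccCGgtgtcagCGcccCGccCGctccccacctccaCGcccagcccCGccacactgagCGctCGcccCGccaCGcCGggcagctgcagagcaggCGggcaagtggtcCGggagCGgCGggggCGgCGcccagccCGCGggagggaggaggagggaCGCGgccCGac
This stretch held 26 CG, a number reached by 9.59% of all stretches.

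Adgrg6, or Gpr126, is needed for myelination by Schwann cells, acts in cartilage, and binds type IV collagen and laminin-211. It was at 9.47, 8.92 and 9.36 in osteoblasts and at 8.37, 8.38 and 8.45 in pre-osteoblasts. In lines 493H, 494H and 716H it was at 7.60, 8.62 and 7.77. The lines lay below all osteoblast cultures, and 494H stood above the pre-osteoblast cultures while the other lines stood below them. Adgrg6 was 2.39-fold lower in osteosarcoma than in osteoblasts (-1.25 ± 0.25, limma adjusted p = 0.00702). It rose from pre-osteoblasts to osteoblasts by 0.85 ± 0.25 (0.0394), a call lost without osteoblast culture 1 or 3 or any 1 pre-osteoblast culture (0.0911 to 0.133). Against pre-osteoblasts the lines differed by -0.40 ± 0.25 (0.319), and by -0.71 without 494H (adjusted p = 0.0138). The remaining genes of the subfamily, Adgrg4 and Adgrg7, lay between 5.29 and 5.69 on all arrays.

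Adgra2 and Adgra3 were both higher in pre-osteoblasts than in either other group. Adgra2, or Gpr124, works with Reck as a coactivator of Wnt7 signalling in brain vessels. It was at 10.38, 10.47 and 10.57 in pre-osteoblasts, at 10.03, 9.84 and 9.94 in lines 493H, 494H and 716H and at 9.51, 9.57 and 9.56 in osteoblasts. The groups did not overlap, with the lines in the middle. Adgra2 fell by 0.93 ± 0.07 in osteoblasts (limma adjusted p = 7.78e-05) and by 0.54 ± 0.07 in osteosarcoma (0.00113), and the lines were above osteoblasts by 0.39 ± 0.07 (0.00408). Adgra3, or Gpr125, was at 11.33, 11.41 and 11.34 in pre-osteoblasts, at 10.89, 10.68 and 10.98 in osteoblasts and at 10.48, 10.67 and 10.76 in the lines. It fell by 0.51 ± 0.10 in osteoblasts (0.00532) and by 0.72 ± 0.10 in osteosarcoma (0.00126), and between these groups the difference was -0.21 ± 0.10 (0.146). Adgra1 was at 7.77, 7.83 and 7.91 in the lines, at 7.83, 8.04 and 8.05 in osteoblasts and at 7.79, 7.82 and 7.81 in pre-osteoblasts, and it was called in no comparison. Without osteoblast culture 1 its osteoblast mean stood 0.24 above pre-osteoblasts (adjusted p = 0.0334), and the lines stood at -0.21 from osteoblasts (0.0492).

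Adgrd1, or Gpr133, couples to the stimulatory G protein and raises cyclic AMP. It was at 7.25, 7.09 and 7.19 in pre-osteoblasts and at 9.71, 10.59 and 9.47 in osteoblasts. In lines 493H, 494H and 716H it was at 11.69, 7.31 and 10.30. Every osteoblast culture lay above every pre-osteoblast culture, 493H was the highest of all arrays, and 494H, at 7.31, stood next to the highest pre-osteoblast culture, at 7.25. None of its differences was called in the fit of all groups, whose spread includes that of the lines. The osteoblast cultures were 2.74 ± 0.94 above pre-osteoblasts (limma adjusted p = 0.0655) and the lines 2.59 ± 0.94 above them (0.0850). With only the Kusa4b10 cultures in the fit, the first of these passed (2.74, adjusted p = 9.77e-04), as it did without line 493H (0.0260) or 494H (0.00178). Without 494H the second was 3.82 (adjusted p = 9.69e-04).

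The BAI receptor genes Adgrb1, Adgrb2 and Adgrb3, known from brain, and Adgrv1, a very large receptor of inner ear hair cells, varied little. Adgrb2 was at 7.11, 7.12 and 7.38 in the lines, at 7.56, 7.52 and 7.42 in osteoblasts and at 7.35, 7.41 and 7.38 in pre-osteoblasts. It was lower in osteosarcoma than in osteoblasts by a small amount (-0.30 ± 0.08, limma adjusted p = 0.0263), a call lost without line 493H or 494H or osteoblast culture 1 or 2 (0.0715 to 0.0945). The call was also lost with only these groups in the fit (limma adjusted p = 0.0716). Against pre-osteoblasts Adgrb2 was called only without line 716H (-0.26, adjusted p = 0.0200). Adgrb1 spanned 0.40 over all arrays, Adgrb3 0.30 and Adgrv1 0.16, and none of them was called. Among the cadherin-like genes Celsr1, Celsr2 and Celsr3, adhesion GPCR genes whose symbols fall outside the rule, 0 of 3 were called in any comparison.

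**Figure D3:**
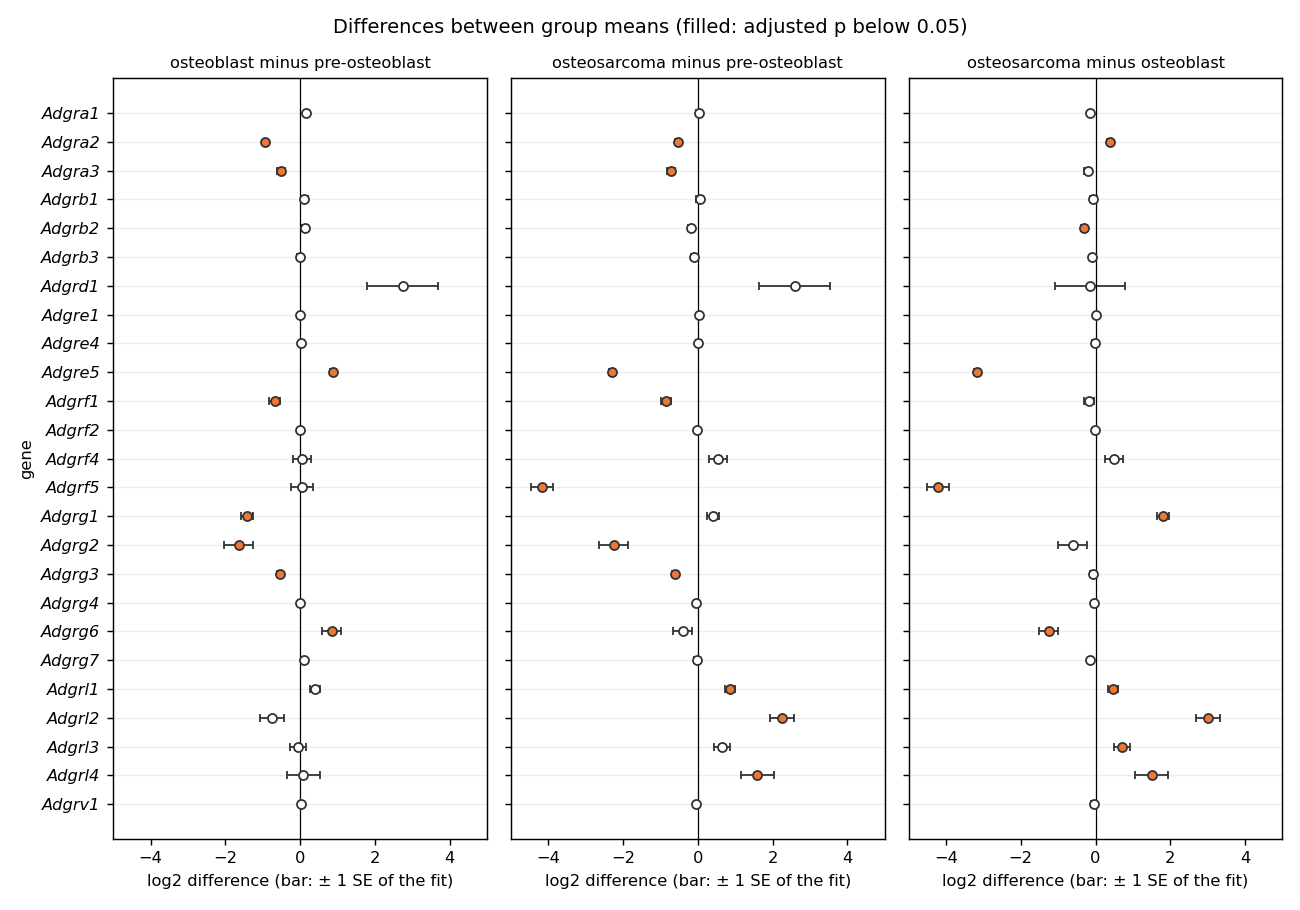
Difference between group means (log2) of each member in the 3 comparisons, with bars of 1 standard error of the fit; filled points had an adjusted p below 0.05. Adgrf5 lies near -4 and Adgre5 between -3.16 and -2.29 in both osteosarcoma comparisons, Adgrl2 between 2.25 and 3.02, and Adgrd1 has the widest bars.

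The spread among the lines was also measured. Over the 3 lines, 7 of 25 members (28%) spanned at least 1, against 4.95% of all genes. Within osteoblasts 1 member did, against 1.27% of all genes, and within pre-osteoblasts 0, against 0.913%. The range over the lines was wider than in both Kusa4b10 groups for 17 members (68%), as for 50.9% of all genes. Each line has 1 array, so no test between lines was possible. Adgrd1 spanned 4.39, Adgrl4 2.14, Adgrg2 1.86, Adgrf5 1.26, Adgrl2 1.13, Adgrg6 1.02 and Adgrf4 1.00. Of these, Adgrf4 was below the olfactory receptor mark in every line. Line 494H was the lowest line for Adgrd1, Adgrg2 and Adgrl2, and the highest for Adgrl4 and Adgrg6. Line 716H was the highest for Adgrg2 and Adgrf5.

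Each line was also set against all 6 Kusa4b10 cultures. In 493H, Adgrd1, Adgrl2 and Adgrl4 stood at least 1 above the highest culture, 12% of members against 1.54% of all genes. In 494H these were Adgrl2, Adgrl3 and Adgrl4, 12% against 1.31%, and in 716H only Adgrl2, 4% against 1.36%. Adgre5 and Adgrf5 stood at least 1 below the lowest culture in every line, and Adgrg2 did so in 494H. That made 8% of members in 493H and 716H, against 0.582% and 0.792% of all genes, and 12% in 494H, against 1.09%.

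**Figure D4:**
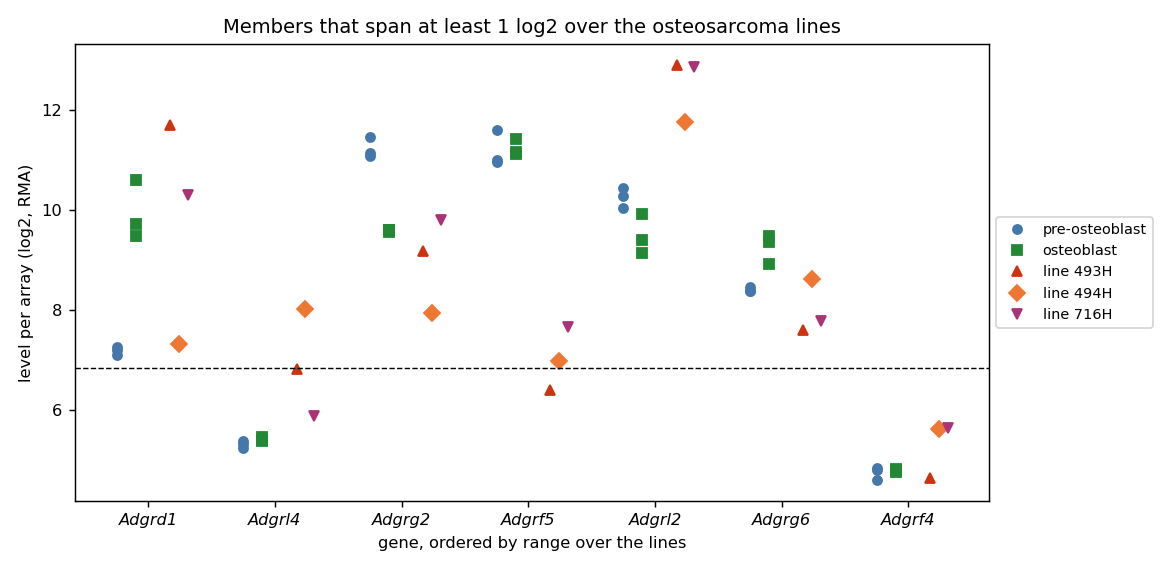
Level (log2) of the 7 members that spanned at least 1 over the osteosarcoma lines, ordered by that range, with each line as its own symbol and the Kusa4b10 cultures beside them; the dashed line marks 6.83. Adgrd1 runs from 7.31 in 494H to 11.69 in 493H, while Adgrl2 in every line stays above all cultures.

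Several members lie next to each other in the genome, as listed in the RefSeq gene table. Besides Adgrl2 with Adgrl4, Adgrf1 with Adgrf5 and Adgrg1 with Adgrg3, the pairs Adgrf4 with Adgrf2 and Adgre5 with Adgrl1 have 0 protein-coding genes between them. In the last pair the lines were lower than both Kusa4b10 states for Adgre5 and higher for Adgrl1. Promoter sequences of 19 members were found, with 23 starts. The 12 stretches of the 10 members whose mean level exceeded the olfactory receptor mark held 3 to 35 CG, with a median of 11. The 11 stretches of the other 9 members held 0 to 36, with a median of 5. The median over all 32851 stretches was 6, and 92.1% of them held at least 1 CG. These counts describe letters in these windows and say nothing of methylation, which was not measured on these arrays.

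The ligands and partners of the family were followed in a list of 34 genes, of which 33 were measured. In osteosarcoma against pre-osteoblasts 11 rose and 6 fell, where 9.96% and 13.5% of all genes did. In osteosarcoma against osteoblasts 8 were higher and 8 lower, where 14.7% and 12.7% of all genes were. In osteoblasts against pre-osteoblasts 7 rose and 1 fell, where 10.3% and 15.8% of all genes did. The list medians were 0.12, 0.03 and 0.03. The 11 became 7 without pre-osteoblast culture 3. The single fall, of Ptk7 (-0.40 ± 0.12, limma adjusted p = 0.0435), was lost without line 494H, osteoblast culture 1 or 3, or any 1 pre-osteoblast culture.

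Thy1, the surface glycoprotein bound by Adgre5, was at 11.95, 11.00 and 12.39 in lines 493H, 494H and 716H. In all Kusa4b10 cultures it lay between 6.79 and 7.11, around the olfactory receptor mark of 6.83. It was higher in the lines by 4.82 ± 0.30 in both comparisons (limma adjusted p = 5.28e-05 against pre-osteoblasts), where Adgre5 was lower. Cd55, another ligand of Adgre5, lay between 4.30 and 4.86 on all arrays, below that mark. Among the teneurins, Tenm3 was at 9.63, 11.23 and 9.91 in the lines and between 6.12 and 6.55 in the cultures (4.04 ± 0.35 above pre-osteoblasts, adjusted p = 2.09e-04). All these culture values lay below the olfactory receptor mark of 6.83, so the size of the difference is measured from a dim level. Tenm4 instead was highest in osteoblasts, 3.24 ± 0.21 above pre-osteoblasts (4.58e-05) and with the lines at -2.59 ± 0.21 from osteoblasts (1.18e-04). Flrt2, Flrt3 and Unc5c, genes of the latrophilin ligand network named after their values were seen, were also higher in the lines than in both states. Flrt2 was at 10.95, 10.85 and 9.92 there, against 7.11 to 8.50 in the cultures. The call of Flrt3 against pre-osteoblasts (0.96 ± 0.22, limma adjusted p = 0.0151) was lost without pre-osteoblast culture 3 (0.0535) or with only the compared groups (0.0547). Flrt3 was dim, at 5.60 to 5.78 in the cultures, and only line 494H (7.26) exceeded the olfactory receptor mark. Unc5c lay around that mark in the cultures, between 6.58 and 7.19. The differences of Flrt3 and Unc5c are thus also measured from dim levels. Unc5b, of the same list, was instead lower in the lines than in osteoblasts (-0.97 ± 0.12, limma adjusted p = 6.89e-04). It was also lower than in pre-osteoblasts (-0.39 ± 0.12, 0.0455), a call lost without any 1 line or any 1 pre-osteoblast culture. Flrt1, Tenm1, Tenm2, Unc5a and Unc5d were called in no comparison. Plxdc2, a reported partner of Adgrd1, was higher than in pre-osteoblasts both in osteoblasts (3.53 ± 0.38, adjusted p = 4.05e-04) and in osteosarcoma (4.43 ± 0.38, 1.95e-04). Its pre-osteoblast levels of 6.57, 6.85 and 6.27 lay around the olfactory receptor mark, with a mean of 6.56 below it. The differences of Plxdc2 from pre-osteoblasts are thus also measured from a dim level. Ptk7, a partner gene of the same list, was instead lower in osteosarcoma than in pre-osteoblasts (-0.93 ± 0.12, limma adjusted p = 0.00115) and osteoblasts (-0.53 ± 0.12, 0.0119).

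For Adgrg6, the matrix ligand genes Lama2, Col4a1 and Col4a2 were measured, the last pair named after their values were seen. Lama2, the laminin-211 chain, rose in osteoblasts by 2.98 ± 0.19 against pre-osteoblasts (limma adjusted p = 4.37e-05) and was lower in osteosarcoma than in osteoblasts (-1.31 ± 0.19, 0.00143). It was higher in osteosarcoma than in pre-osteoblasts (1.67 ± 0.19, 6.17e-04), where the difference of Adgrg6 was -0.40 and not called. Col4a1 and Col4a2 were lower in osteosarcoma than in osteoblasts (-1.64 ± 0.17 and -2.01 ± 0.15). Both were also lower than in pre-osteoblasts (-1.27 ± 0.17, limma adjusted p = 0.00124, and -1.12 ± 0.15, 0.00125), where Adgrg6 was not called. For Adgrg1, the ligand gene Col3a1 was higher in osteosarcoma than in osteoblasts by 1.15 ± 0.31 (0.0237). That call was lost without line 493H or 716H or osteoblast culture 1 or 3 (0.0635 to 0.0887). It was also lost with only these groups in the fit (limma adjusted p = 0.0645).

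**Figure D5:**
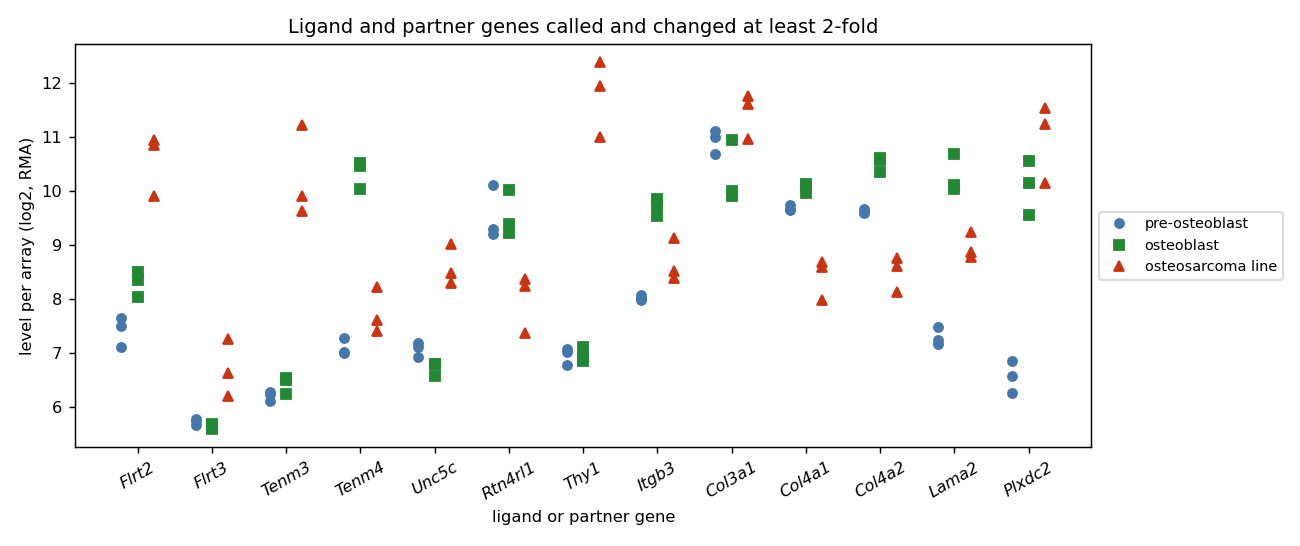
Level (log2) on each array of the 13 ligand and partner genes that were called and changed at least 2-fold in a comparison. Thy1 lies at 11.00 or above in the lines and at 7.11 or below in all Kusa4b10 cultures, and Tenm4 is highest in the osteoblast cultures.

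Genes of the signalling steps after the receptors were counted in the same way. Of 15 measured G protein alpha subunits, 4 fell in osteoblasts against pre-osteoblasts, where 15.8% of all genes did, led by the inhibitory subunit Gnai2 (-0.65 ± 0.07, limma adjusted p = 3.88e-04). In osteosarcoma against osteoblasts 4 were higher, led by Gnai3 (0.68 ± 0.06, 2.27e-04), and 2 lower, where 14.7% and 12.7% of all genes were. Against pre-osteoblasts 2 rose and 1 fell, Gnaq (-0.49 ± 0.09, limma adjusted p = 0.00524), where 9.96% and 13.5% of all genes did. With lists this short, nothing particular to the subunits is read from these counts. The 2 lower than in osteoblasts became 1 without line 494H or osteoblast culture 1 or 3, and the single fall against pre-osteoblasts became 2 without line 494H. Of 10 adenylyl cyclases, Adcy7 (1.30 ± 0.18, 0.00112) and Adcy4 (0.88 ± 0.28, 0.0486) were higher and Adcy9 (-0.82 ± 0.15, 0.00497) lower in osteosarcoma than in osteoblasts. The call of Adcy4 was lost without line 493H or 716H or any 1 Kusa4b10 culture. Against pre-osteoblasts Adcy6 fell in osteosarcoma (-0.75 ± 0.14, 0.00603) and Adcy7 rose (0.70 ± 0.18, 0.0227), the latter not without line 716H or any 1 pre-osteoblast culture. Of all genes, 14.7% were called higher and 12.7% lower against osteoblasts, and 9.96% and 13.5% against pre-osteoblasts. With only 10 cyclases, nothing particular to them is read from these calls.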

How the data were processed

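Expression was measured in 9 samples, each on 1 array. The authors deposited log2 expression levels. The submitters' processing notes list RMA and mm9, and give neither a version of RMA nor a filter. RMA compresses differences near background and removes changes of total RNA per cell. Of 35556 probe sets, 21789 had 1 gene symbol in the platform annotation, 1621 had several and 12146 had none. Probe sets with several symbols or none were left out, and keeping 1 probe set per gene left 19938 genes. The members and lists were chosen with earlier results of these data known. Using limma 3.58.1 (R 4.3.3), 1 mean per group was fitted over the 9 arrays together, with two-sided moderated tests from eBayes and no filter on level, and this pipeline was tested on simulated data. The number of arrays, 3 a group, limits the precision, and p-values measure only the spread between these samples. Per-array values are given for members called at 2-fold or more with groups that do not overlap, the 5 widest over the lines and the 5 highest of the rest; from each list, the 3 largest called differences per comparison are named, with exceptions said. Promoter sequences were read in the direction of transcription.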

Additional observations from a re-analysis of the deposited data

How the results depend on the processing

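The alternatives were 3 filters on level, averaging over probe sets, a further quantile normalization, centring on array medians, 1 array weight per group, only the compared groups, and each array left out in turn. The number of members higher in osteoblasts than in pre-osteoblasts was 2, and it was 4 with means above the median of all genes, with means above the olfactory receptor mark, with array weights, and with only the compared groups. The replicate block was fitted to the compared groups only, and gave 4 higher and 6 lower, where the same groups without it gave 4 higher and 7 lower; Adgrl2 was the one lost. Deviations of same-numbered osteoblast and pre-osteoblast cultures from their group means correlated at 0.15, 0.18 and 0.03 across genes. Osteoblast culture 3 correlated best with pre-osteoblast culture 1 (0.08), and every other culture with its own number. With 3 cultures a group, these values cannot settle whether same-numbered cultures share more than a number. Leaving out 1 array gave 1 to 4 members higher in osteoblasts than in pre-osteoblasts, 2 to 5 higher in osteosarcoma than in pre-osteoblasts and 3 to 6 higher in osteosarcoma than in osteoblasts. The cause was not tested, except that filters leave fewer genes to adjust over. No called difference of a member changed sign under these settings; 41 values for members lost a call and 31 gained one. The range of Adgrf2 over the lines, 0.04, became 0.09 with quantile normalization and 0.05 with centring. Dim probe sets, at or below the olfactory receptor mark, limit what can be read from 11 members.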
